A study of Mus musculus with 13 samples.

Results

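miR-150 was followed in thymic iNKT cells through the 3 rows that carry its name, 1 hairpin (mmu-mir-150, called mir-150 here) among 1127 hairpins and 2 mature arms (miR-150-5p and miR-150-3p) among 1297 mature sequences. The rows were taken by name from the 2424 rows of both tables, and miR-150 was chosen with earlier results of these data known. Small RNA was sequenced from 6 WT mice and 7 *Tet2/3* DKO mice, 1 library per mouse. WT controls were C57BL/6 mice, and *Tet2/3* DKO mice had the genotype Tet2-/-Tet3flx/flxcd4cre, in which *Tet2* is absent from every cell of the mouse and *Tet3* is removed by a Cre under *Cd4* control, thus from the stage at which developing T cells first express *Cd4*. All mice were between 21 and 25 days old and males and females were used in both groups. Thymocytes were depleted of CD24+ cells, and live TCRβ+ cells that bound the lipid-loaded tetramer were sorted by FACS, so the study called the sorted cells iNKT cells by surface staining. The genes that define iNKT cells are not miRNAs and cannot be checked in these tables. The blood cell miRNAs miR-142a-3p and miR-142a-5p were abundant in every library, with a summed level of 28027 to 34873 CPM (counts scaled to library size) in WT mice, and of 17677 to 30190 CPM in *Tet2/3* DKO mice.

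miR-150 is a miRNA of lymphocytes. It is low in early progenitors and accumulates as T, B and NK cells mature, it falls again when resting T cells are activated, and its best known target is *Myb*, a transcription factor gene of progenitors and immature lymphocytes. In mice, loss or excess of miR-150 has been linked to disturbed maturation of NK and iNKT cells. Each miRNA hairpin is cut from a longer transcript by DROSHA and then by DICER, and one of the 2 arms, here the 5p arm, usually makes up most of the mature product while the other is largely degraded.

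*Mir150* lies on the plus strand of chromosome 7 of GRCm38, at chr7:45121757-45121821, and its 65 bases overlap no other gene of the GENCODE annotation. The nearest annotated gene is *Gm45552*, a transcript of the antisense class on the same strand as *Mir150*, 95 bases downstream. The 3p arm takes bases 42 to 63 of the hairpin. Its mature sequence is given from RefSeq (GRCm38.p6), written 5′ to 3′ with the seed, bases 2 to 8, in capitals, because the seed decides which mRNAs a miRNA can pair with.
miR-150-3p: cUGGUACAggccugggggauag
Of the 1679 mature names in the RefSeq table, 1 has the seed UGGUACA, miR-150-3p itself. No other row in either count table had the same counts as a miR-150 row in all 13 libraries (0 such rows).

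The mir-150 hairpin, miR-150-5p and miR-150-3p were each lower in *Tet2/3* DKO iNKT cells. The abundant arm, miR-150-5p, was 2.26-fold lower, the hairpin 2.43-fold lower and the rare arm, miR-150-3p, 1.69-fold lower. The hairpin and the 5p arm separated the genotypes completely, whereas the 3p arm overlapped in 1 mouse of each genotype. Levels are given as CPM after TMM scaling, which takes most miRNAs to be equal between libraries, and each fold change is therefore a change against the bulk of miRNAs. In bulk RNA, fewer cells that contain miR-150 and less miR-150 per cell cannot be told apart.

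For miR-150-5p the level was lowest at 18383 CPM, median 24842 CPM and highest at 37323 CPM among WT mice. Among *Tet2/3* DKO mice the lowest level was 8695 CPM, the median 10323 CPM and the highest 16804 CPM. The highest *Tet2/3* DKO mice, replicates 5 and 6, stayed below the lowest WT mouse, replicate 1, and WT replicates 5 and 6 were the highest of their genotype. WT mice averaged 26723 ± 6756 CPM (SD, n = 6), whereas *Tet2/3* DKO mice averaged 11833 ± 3403 CPM (SD, n = 7). On the log2 scale the difference came to -1.18 (SE 0.183, adjusted p = 3.58e-05, edgeR's quasi-likelihood test over 401 mature miRNAs). In that test 27.4% of the mature miRNAs were lower and 28.2% were higher in *Tet2/3* DKO at an adjusted p-value under 0.05, and in 14.5% all *Tet2/3* DKO mice were below all WT mice, so neither property is rare in these data. miR-150-5p took position 56 of the 401 when these were ordered from the largest fall to the largest rise. It was not past the study's second threshold, an absolute log2 fold change above 2, which 7.23% of the mature miRNAs passed on the lower side.

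For the mir-150 hairpin the 6 WT mice lay between 14702 and 26402 CPM with a median of 19716 CPM. The 7 *Tet2/3* DKO mice lay between 6479 and 11835 CPM with a median of 7635 CPM. Again the groups did not overlap, and replicates 5 and 6 were the highest mice in both genotypes. The WT mean of 20634 ± 4152 CPM (SD, n = 6) stood against 8488 ± 1956 CPM (SD, n = 7), a difference on the log2 scale of -1.28 (SE 0.151, adjusted p = 1.01e-06, edgeR's quasi-likelihood test over 350 hairpins). Lower hairpins were 27.1% and higher ones 32.6% of those tested, those without overlap on the lower side were 14% and those lower by more than 2 on the log2 scale were 6.57%. mir-150 was at position 35 of the 350 from the largest fall and did not pass the fold threshold of 2. Whether a read counted on a mature arm could also be counted on its hairpin is not stated, so the hairpin need not be a measurement separate from the arms, and a hairpin count need not stand for an intact precursor.

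The 3p arm was far scarcer, with 152 to 469 reads in each WT mouse and 244 to 503 reads in each *Tet2/3* DKO mouse. Its level was between 143 and 222 CPM in WT (median 193 CPM) and between 89.6 and 157 CPM in *Tet2/3* DKO (median 109.5 CPM). Only *Tet2/3* DKO replicate 3, at 157 CPM, reached the range of WT mice, where replicate 1 was lowest at 143 CPM. As shares of all mature counts these were 0.0171% (95% Wilson interval 0.0156 to 0.0188) and 0.0137% (0.0117 to 0.0160), and the intervals, which cover counting error only, overlap. Its log2 fold change came to -0.76 (SE 0.160, adjusted p = 0.000406, edgeR's quasi-likelihood test), at position 81 of 401.

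**Figure D1:**
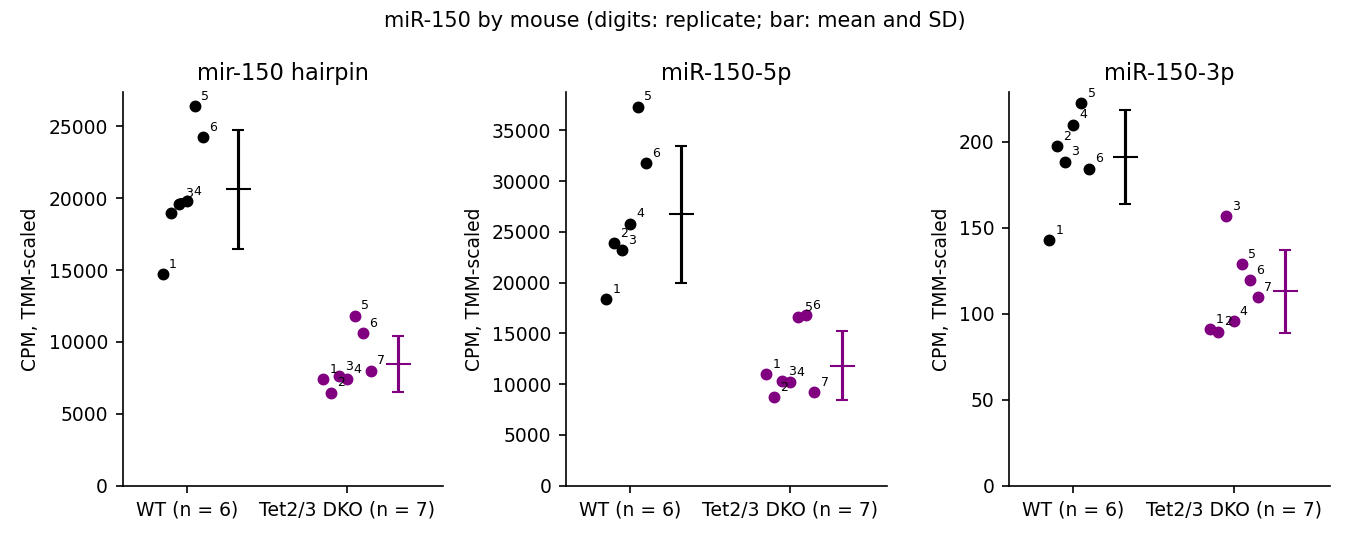
Level of the mir-150 hairpin, miR-150-5p and miR-150-3p in each mouse, in CPM after TMM scaling, with WT in black (n = 6) and *Tet2/3* DKO in purple (n = 7), digits giving the replicate and bars the mean and SD. The *Tet2/3* DKO mice lie below all WT mice for the hairpin (highest 11835 CPM) and the 5p arm (highest 16804 CPM), and replicate 3 lies within the WT range for the 3p arm.

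The rank of miR-150 within each library does not depend on how libraries are scaled. miR-150-5p was between the 8th and the 16th most counted mature sequence in WT (median 12) and between the 15th and the 21st in *Tet2/3* DKO (median 19). The mir-150 hairpin ranked from 16 to 19 in WT and from 20 to 29 in *Tet2/3* DKO, and miR-150-3p from 121 to 139 and from 146 to 164. The hairpin and 3p ranks did not overlap between genotypes, although the 3p levels in CPM did. For the 5p arm *Tet2/3* DKO replicate 6 (rank 15) stood above WT replicate 1 (rank 16). The share of all rows whose ranks did not overlap was not counted. Without any scaling, miR-150-5p made up between 1.76% and 3.19% of the mature counts of WT mice and between 1.06% and 1.67% of those of *Tet2/3* DKO mice. The closest mice were WT replicate 1 at 1.76% (95% Wilson interval 1.74 to 1.79) and *Tet2/3* DKO replicate 5 at 1.67% (1.66 to 1.68).

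Depth differed between genotypes, since mature totals were 1110852 to 2582057 counts for WT mice and 1837631 to 4361963 counts for *Tet2/3* DKO mice. In the range of depth that both share, *Tet2/3* DKO replicates 7 and 3 (1837631 and 2573698 counts) had 9239 and 10323 CPM of miR-150-5p, and WT replicates 5, 3 and 4 (2289784, 2504156 and 2582057 counts) had 37323, 23215 and 25793 CPM. TMM factors were also lower in WT (0.856 to 0.976) than in most *Tet2/3* DKO libraries (0.957 to 1.22), and library size only in place of TMM factors moved the median log2 fold change of mature miRNAs up by 0.246 and that of hairpins by 0.336. With library size only, the log2 fold changes were -0.95 for miR-150-5p, -0.94 for mir-150 and -0.51 for miR-150-3p, and all 3 were called at an adjusted p-value under 0.05 by edgeR.

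Sorted cells can carry RNA of other cells. The 3 red cell markers summed to 119 to 238 CPM in WT mice and to 14.1 to 68.5 CPM in *Tet2/3* DKO mice, and the hepatocyte marker miR-122-5p had 46.9 to 883 CPM and 3.16 to 49.3 CPM. The myeloid marker miR-223-3p had 2.31 to 91.7 CPM in WT mice and 0.633 to 6.57 CPM in *Tet2/3* DKO mice, 4 stromal markers summed to 67.6 to 120.5 CPM and 12.02 to 22.6 CPM, and 5 epithelial markers to 983 to 1466 CPM and 585 to 762 CPM. The 2 endothelial markers, miR-126a-3p and miR-126a-5p, went the other way, with 127 to 237 CPM in WT mice and 196 to 335 CPM in *Tet2/3* DKO mice. Of the tested markers 2 of 2 for red cells, 1 of 1 for hepatocytes, 1 of 1 for myeloid cells, 4 of 4 for stroma and 3 of 4 for epithelium were lower, and 1 of 2 for endothelium was higher, beside 27.4% lower and 28.2% higher among all mature miRNAs. None of the listed markers was at 0 in all libraries. Most of these lists thus moved in the direction of miR-150-5p, at levels far below that of miR-150-5p, and their part in the result was not tested.

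**Figure D2:**
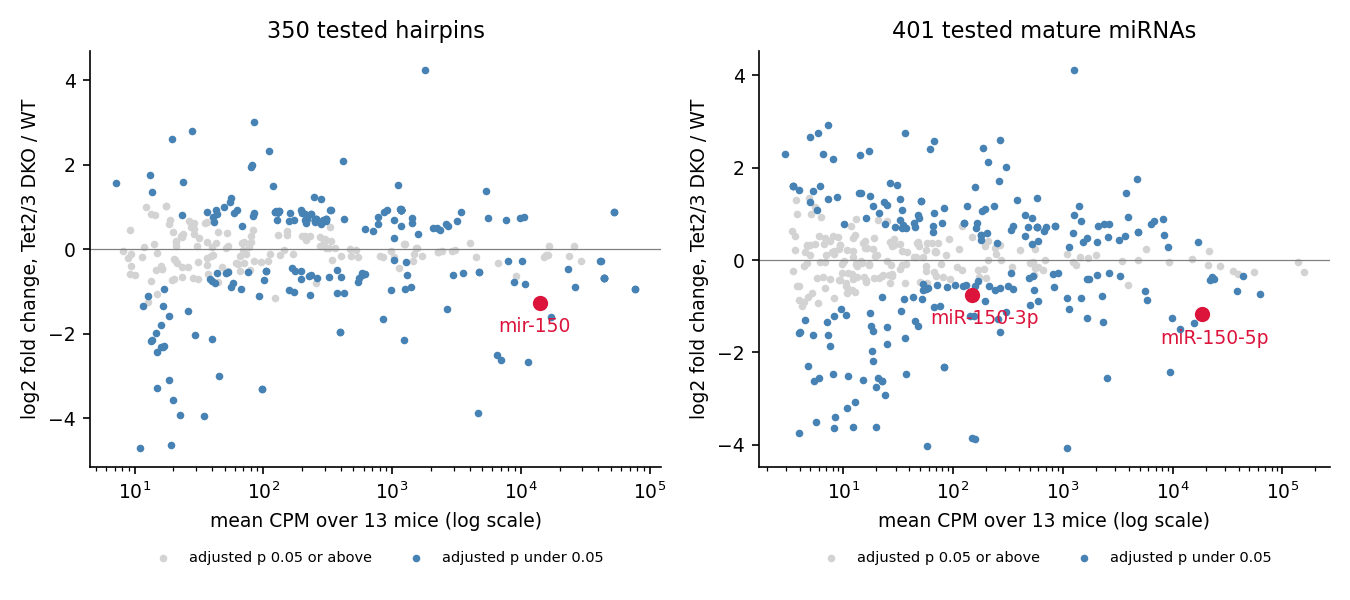
Log2 fold change between *Tet2/3* DKO and WT against mean CPM over 13 mice (log scale) for 350 tested hairpins and 401 tested mature miRNAs, with those at an adjusted p-value under 0.05 in blue and the miR-150 rows in red. mir-150 (-1.28) and miR-150-5p (-1.18) lie among the most abundant miRNAs, and miR-150-3p (-0.76) lies further to the left.

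Among the 19 mature miRNAs with a mean of at least 10000 CPM, 9 were lower, 1 was higher and 9 did not pass the test, where all 401 tested mature miRNAs had 27.4% lower and 28.2% higher. The higher one was let-7i-5p, which was not past the threshold without WT replicate 1 (adjusted p = 0.0613, edgeR). miR-150-5p had the third lowest fold change of the 19. The next more abundant mature miRNA was miR-27a-3p, which averaged 21846 ± 3000 CPM (SD, n = 6) among WT mice and 20206 ± 2744 CPM (SD, n = 7) among *Tet2/3* DKO mice, and the next less abundant was let-7i-5p, with 14679 ± 2140 CPM and 19271 ± 2776 CPM. In WT the means of miR-150-5p and miR-27a-3p were closer than 1 SD of miR-150-5p, while in *Tet2/3* DKO miR-150-5p was below both neighbours by more than the SD of either. These are counts per sequence of similar length, and no correction was made for how well single sequences are captured.

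How the rows of miR-150 moved against each other was read from ratios of counts inside each library, which no scaling can change. Of 9 such ratios compared between genotypes by exact permutation over the 1716 divisions of the 13 mice into 6 and 7, 7 set miR-150-5p against other miRNAs and therefore share their numerator. WT mice had 121 to 172 counts of the 5p arm per count of the 3p arm, and *Tet2/3* DKO mice had 65.9 to 140.4. The mean log2 ratio was 7.10 ± 0.238 in WT (SD, n = 6) and 6.69 ± 0.380 in *Tet2/3* DKO (SD, n = 7), a difference of -0.41 (two-sided exact permutation p = 0.0425, 0.0479 after Benjamini-Hochberg adjustment over the 9 ratios). The groups overlapped, with 5 of 7 *Tet2/3* DKO mice below all WT mice, and without 1 mouse the adjusted value was not past 0.05 in 11 of 13 cases (highest exact permutation value 0.105 after adjustment). The unequal change of the arms is therefore only just past the threshold.

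The hairpin and its 5p arm moved almost together. The log2 ratio of hairpin to 5p counts was -1.60 ± 0.0467 in WT (SD, n = 6) and -1.67 ± 0.0485 in *Tet2/3* DKO (SD, n = 7), or 0.329 and 0.315 hairpin counts per 5p count. The difference of -0.06 passed the exact permutation test with all mice (p = 0.0425, adjusted p = 0.0479) and did not in 9 of the 13 cases without 1 mouse.

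Against other miRNAs the 5p arm lost ground to different extents, and each ratio also holds the reference's own change. The log2 fold changes of the references were -0.03 for miR-181a-5p, 0.27 for miR-21a-5p and 0.46 for miR-155-5p, and of these only miR-21a-5p was called by edgeR. Relative to miR-181a-5p, a miRNA of immature thymocytes that sets the sensitivity of the TCR, it fell by 1.15 on the log2 scale (exact permutation p = 0.000583, the smallest this design allows, adjusted p = 0.00262), and the groups did not overlap. In linear terms there were 0.187 counts of miR-150-5p per count of miR-181a-5p in WT and 0.0844 in *Tet2/3* DKO. Relative to miR-21a-5p, which rises in activated T cells, it fell by 1.45 (exact permutation p = 0.000583, adjusted p = 0.00262), again without overlap, from 3.19 counts per count to 1.16. Relative to miR-155-5p, a miRNA of activated lymphocytes that was scarce here (76.0 CPM in WT, 105 CPM in *Tet2/3* DKO), the difference was -1.69 (exact permutation p = 0.00233, adjusted p = 0.00524), with 6 of 7 *Tet2/3* DKO mice below all WT mice.

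Of the reference miRNAs found throughout blood cells, miR-16-5p (-0.93, exact permutation p = 0.00117, adjusted p = 0.00350) and miR-191-5p (-0.84, exact permutation p = 0.00350, adjusted p = 0.00629) gave a lower ratio, the first without overlap. Relative to miR-142a-3p the difference was -0.77 (exact permutation p = 0.0239, adjusted p = 0.0358), which was not past the threshold in 8 of the 13 cases without 1 mouse. Relative to miR-142a-5p it was -0.54 (SE 0.387, exact permutation p = 0.217, adjusted p = 0.217), and here the *Tet2/3* DKO mice spread widely, from 0.776 to 3.26 on the log2 scale against 2.07 to 3.08 in WT. That spread belongs to the reference too, whose own level averaged 4757 ± 609 CPM (SD, n = 6) for WT and 3264 ± 1384 CPM (SD, n = 7) for *Tet2/3* DKO. The blood cell references were not stable themselves. By edgeR miR-142a-3p (-0.41) and miR-191-5p (-0.35) were called lower, while miR-142a-5p (-0.54) and miR-16-5p (-0.25) were not called.

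**Figure D3:**
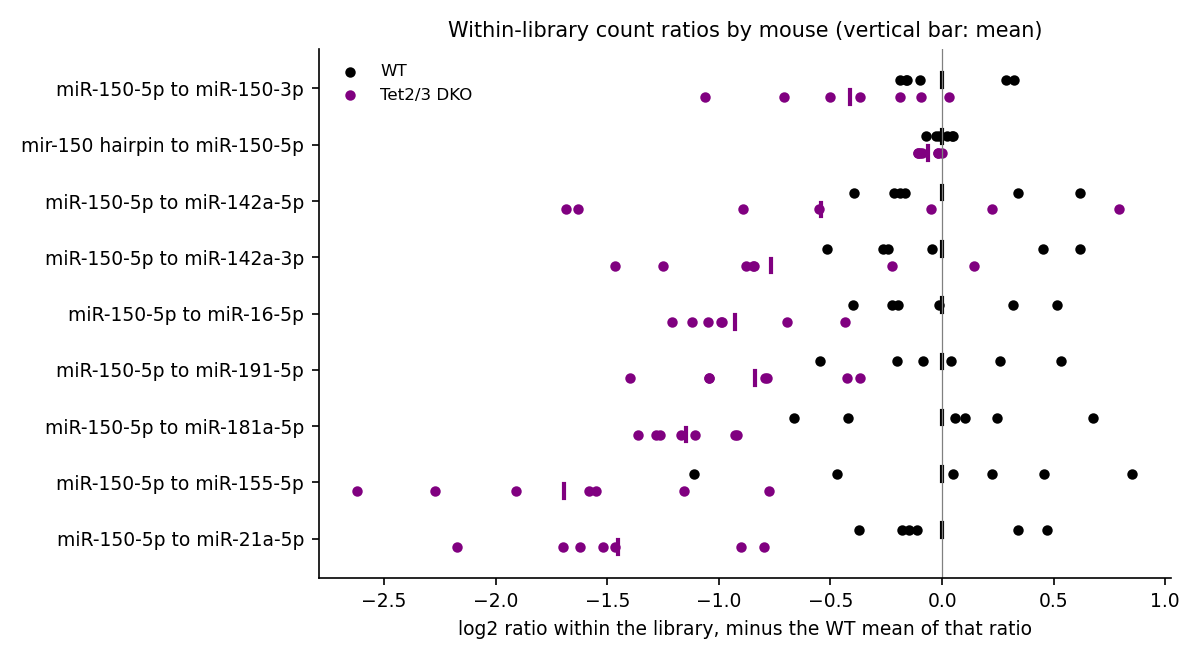
Log2 ratio of counts within each library, minus the WT mean of that ratio, for the 2 arms, for hairpin and 5p arm, and for miR-150-5p over 7 reference miRNAs, with WT mice in black, *Tet2/3* DKO mice in purple and vertical bars for means. The genotypes are separate for miR-16-5p, miR-181a-5p and miR-21a-5p, and the hairpin to 5p ratio varies least (SD 0.0467 in WT and 0.0485 in *Tet2/3* DKO).

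The miRNAs whose profile over the 13 libraries was closest to that of miR-150-5p were found by the root mean square difference of log2 CPM, each miRNA centred on its own mean. The closest was miR-342-5p, at 0.195, followed by miR-200c-3p (0.290), miR-342-3p (0.309), miR-423-5p (0.312) and miR-22-3p (0.325), where the median over all tested miRNAs was 0.879. The own partner arm miR-150-3p, at 0.363, would take position 13. This measure includes the difference between genotypes and was given no test. miR-342-5p and miR-342-3p are the 2 arms of one hairpin that lies in an intron of *Evl*. miR-342-5p averaged 1572 ± 380 CPM (SD, n = 6) for WT and 758 ± 150 CPM (SD, n = 7) for *Tet2/3* DKO, and its log2 fold change was -1.05 (SE 0.150, adjusted p = 5.81e-06, edgeR's quasi-likelihood test). miR-342-3p averaged 7093 ± 1599 CPM and 4443 ± 1102 CPM, and its log2 fold change was -0.68. The log2 fold changes of miR-200c-3p (-0.89), miR-423-5p (-1.33) and miR-22-3p (-1.57) were also past the threshold, and miR-200c-3p is one of the 5 epithelial markers above.

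**Figure D4:**
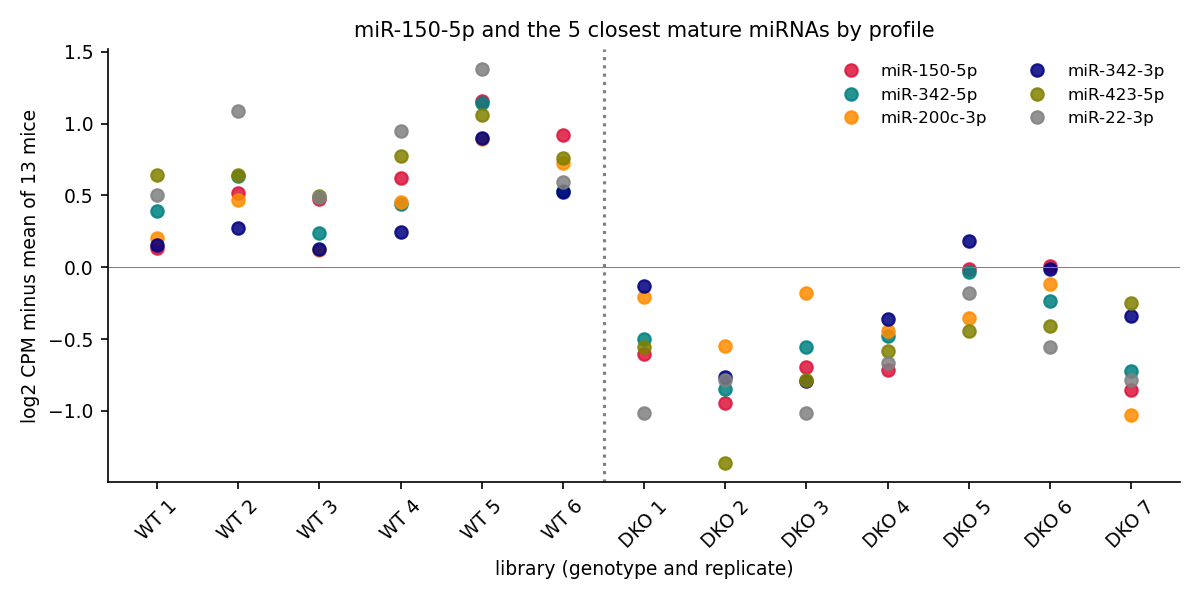
Log2 CPM in each of the 13 libraries, minus the mean over all of them, for miR-150-5p (red) and the 5 mature miRNAs with the closest profile. All 6 are above their mean in the 6 WT mice, and WT replicate 5 is the highest library of each.

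Since miR-150 is a miRNA of resting mature lymphocytes, other miRNAs known from resting lymphocytes, from immature thymocytes and from activated T cells were set beside it, as counts and medians only. The lists were chosen with earlier results of these data known. They hold related miRNAs, such as both arms of miR-342 and members of the miR-26 and miR-29 families, so members of a list are not independent. Of the 11 resting lymphocyte miRNAs, which are known to fall when T cells are activated, 8 were lower in *Tet2/3* DKO, 0 were higher and 3 did not pass, where all mature miRNAs had 27.4% lower and 28.2% higher. Their median log2 fold change was -0.67, against -0.01 over all 401 tested mature miRNAs. Both of the most abundant, miR-26a-5p (-0.67, from 47889 to 30053 CPM) and miR-26b-5p (-1.25, from 14248 to 5999 CPM), were lower. miR-30b-5p (-0.00064) and miR-30c-5p (-0.20) were the most abundant that did not pass. Library size only left 6 lower members, with a median of -0.42 where all mature miRNAs had 0.24.

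Of the 11 miRNAs of immature thymocytes, 2 were lower, 3 were higher and 6 did not pass, which is near the shares of all mature miRNAs (27.4% lower and 28.2% higher). Their median log2 fold change of 0.10 turned negative without WT replicate 2 (-0.048), WT replicate 5 (-0.024) or *Tet2/3* DKO replicate 2 (-0.037), 3 (-0.032) or 7 (-0.047). In the same order, the median over all mature miRNAs was -0.091, -0.059, -0.039, -0.061 and -0.086, lower than that of the list each time. The most abundant that passed were higher in *Tet2/3* DKO, miR-17-5p (0.89, from 5652 to 10469 CPM) and miR-20a-5p (0.84, from 4734 to 8486 CPM), both of the cluster headed by miR-17, which drives lymphocyte proliferation. The cluster did not move as a whole. Its miR-18a-5p (0.78) was higher, miR-92a-3p (-0.41) was lower, and miR-19a-3p (0.10) and miR-19b-3p (0.29) did not pass. Of the list members that did not pass, miR-181a-5p (-0.03) averaged 140494 ± 20477 CPM (SD, n = 6) for WT and 137445 ± 24052 CPM (SD, n = 7) for *Tet2/3* DKO, and miR-181b-5p had 0.19. With library size only 0 members were lower and 5 were higher, and their median was 0.38 where all mature miRNAs had 0.24.

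Of the 12 miRNAs of activated or effector T cells, 6 were higher, 1 was lower and 5 did not pass, where all mature miRNAs had 27.4% lower and 28.2% higher. Their median log2 fold change was 0.43, where all tested mature miRNAs had -0.01. Without WT replicate 1 it was 0.26 (all mature miRNAs -0.033). With upper-quartile factors it was 0.24 (all -0.17), and with library size only 0.66 (all 0.24). miR-31-5p (4.12, from 128 to 2227 CPM) exceeded all WT mice in every *Tet2/3* DKO mouse. The small difference of miR-21a-5p (0.27) was not past the threshold in 12 of the 13 fits without 1 mouse. The most abundant members that did not pass were miR-146a-5p (0.0031) and miR-96-5p (0.24). The count of higher members was 3 without WT replicate 5 and 9 with library size only. Among all mature miRNAs 113 of 401 were higher in the main fit, 97 to 109 without 1 mouse and 87 to 142 over the other settings. miR-150-5p at -1.18 was lower than each of the 12 activation miRNAs and each of the 11 immature ones, while 2 of the 11 resting miRNAs were lower still.

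**Figure D5:**
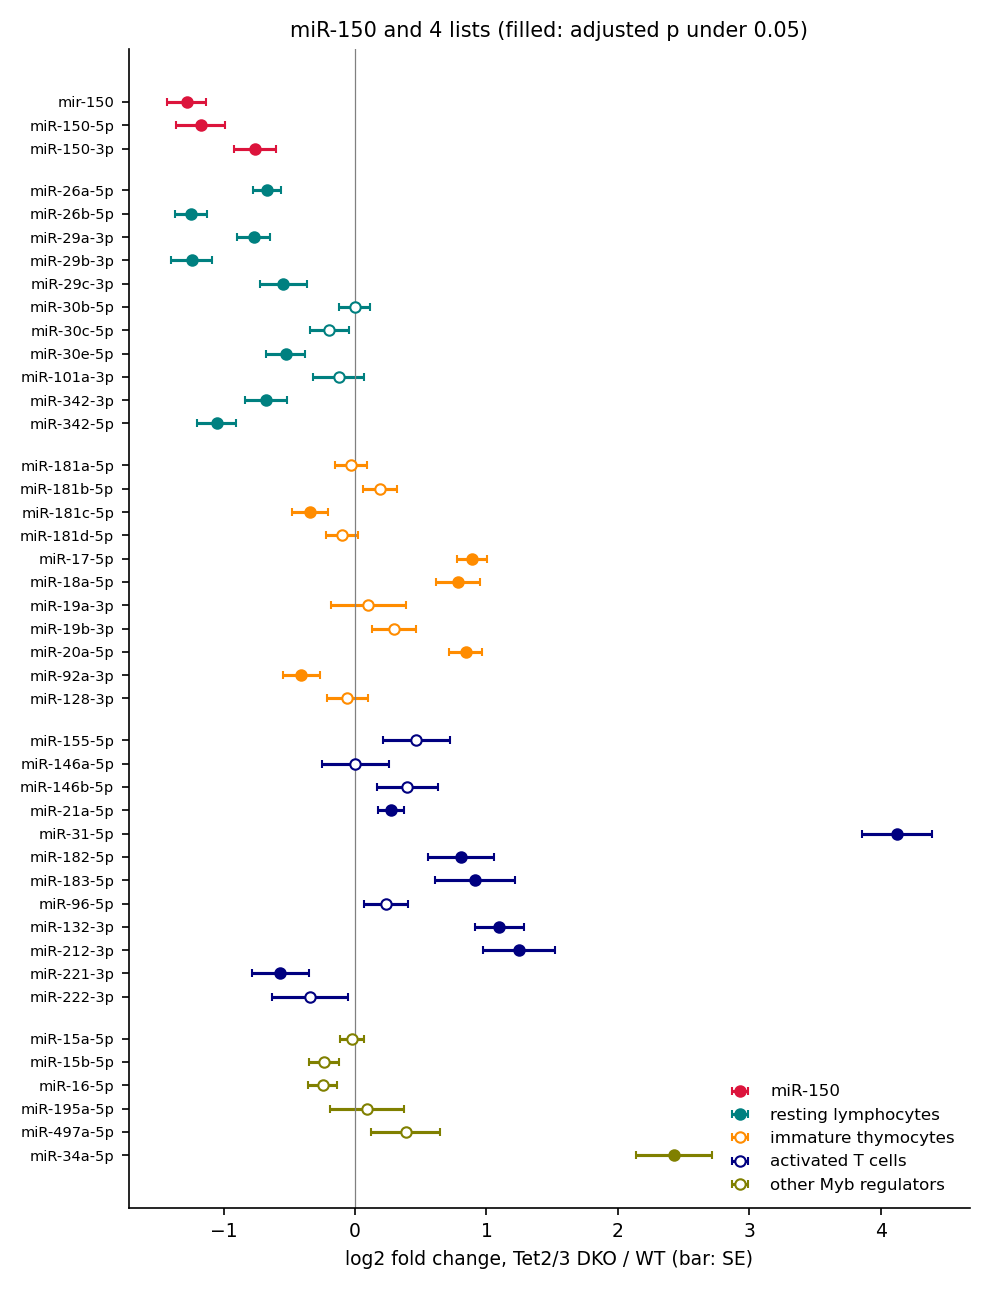
Log2 fold change with its SE for the miR-150 rows and the members of 4 lists of mature miRNAs, filled where the adjusted p-value was under 0.05. Of the resting lymphocyte miRNAs 8 of 11 are filled and negative, and of the activation miRNAs 6 of 12 are filled and positive.

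*Myb* is reported as a target of other miRNAs as well, those of the miR-15 and miR-16 family and miR-34a-5p. Their RefSeq sequences show which of them could bind the same mRNA sites, since family members carry the same seed (capitals). On GRCm38.p6 they lie at chr14:61632075-61632096 (miR-15a-5p, minus strand), chr3:69009775-69009796 (miR-15b-5p), chr3:69009918-69009939 and chr14:61631936-61631957 (miR-16-5p, the second on the minus strand), chr11:70235062-70235082 (miR-195a-5p), chr11:70234730-70234751 (miR-497a-5p) and chr4:150068473-150068494 (miR-34a-5p).
miR-15a-5p: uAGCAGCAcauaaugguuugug
miR-15b-5p: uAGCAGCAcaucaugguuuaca
miR-16-5p: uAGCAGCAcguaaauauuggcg
miR-195a-5p: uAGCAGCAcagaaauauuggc
miR-497a-5p: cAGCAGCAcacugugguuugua
miR-34a-5p: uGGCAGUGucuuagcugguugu
Neither of these seeds is that of miR-150-3p. The seed AGCAGCA is carried by 10 of the 1679 mature names, of which 6 were tested, and the list does not hold them all. One left out is miR-322-5p, whose hairpin was higher in *Tet2/3* DKO (log2 fold change 0.87, adjusted p = 9.28e-05, edgeR). The counts below therefore cover the listed miRNAs and not every miRNA with this seed. The seed of miR-150-5p, the abundant arm, was not compared, because its sequence was not in the RefSeq table. Of these 6 miRNAs 0 were lower, 1 was higher and 5 did not pass in edgeR's quasi-likelihood test with all mice, which for the higher side is no more than the 28.2% of all mature miRNAs (27.4% were lower). miR-34a-5p, which is known as a target of p53, averaged 55.5 ± 10.8 CPM (SD, n = 6) for WT and 299 ± 145 CPM (SD, n = 7) for *Tet2/3* DKO, and its log2 fold change was 2.43 (SE 0.288, adjusted p = 2.43e-06). The abundant miR-16-5p (-0.25, adjusted p = 0.0602) and miR-15b-5p (-0.24, adjusted p = 0.0760) were just outside the threshold with all mice, and they were past it in 13 and 11 of the 13 fits without 1 mouse. *Myb* mRNA was not measured in these libraries.

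The nearest annotated miRNA to *Mir150*, looked up after the values were seen, is *Mir5121*, 5096 bases away on the minus strand, where it overlaps the snoRNA gene *Snord33*. Its mature sequence had 6 to 28 counts in each WT mouse and 14 to 54 in each *Tet2/3* DKO mouse, and its log2 fold change was -0.08 (SE 0.363, adjusted p = 0.856, edgeR's quasi-likelihood test). Reads of the snoRNA and of this miRNA cannot be told apart there.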

How the data were processed

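Thymic iNKT cells of 6 WT and 7 *Tet2/3* DKO mice were profiled by small RNA-seq. The authors processed reads with nf-core/smrnaseq at default parameters and deposited raw counts per hairpin and per mature sequence, 1 column per mouse, not normalized. The aligner, the miRNA database release and whether a read could be counted in both tables are not given in the sources used here. Each column name gave the genotype and number of 1 mouse.

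Each table was fitted whole with edgeR 4.0.16 (R 4.3.3): filterByExpr (minimum count 10, minimum total count 15), TMM factors and a robust quasi-likelihood test of genotype over 13 mice, with Benjamini-Hochberg adjustment per table (called under 0.05) and the SE taken as the log2 fold change over the square root of F. This left 350 hairpins and 401 mature miRNAs. The script recovered known changes in simulated counts, which had a common dispersion and random changes in both directions. How well TMM scaling holds in the present libraries was not tested by it. Ratios used log2 of counts plus 0.5 and two-sided exact permutation (Python 3.11.15), and profiles used log2 CPM with a prior count of 2. Within each genotype, chi-square per degree of freedom of any pair of libraries was at least 15, so no pair differed by counting error alone. This cannot show that libraries came from different mice, and 1 mouse per library is taken from the study. P-values measure spread between mice.

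The miR-150 rows, the lists and the reference miRNAs were chosen with earlier results of these data known, so list counts are descriptions. Named miRNAs were, besides these, the 5 closest profiles, both neighbours in level, and the 2 most abundant members of each list on either side of the threshold. Alternatives were other scalings, filters, identical rows taken once, a replicate block, DESeq2 1.42.0, limma-voom (limma 3.58.1), another pseudocount, and leaving out each mouse.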

Additional observations from a re-analysis of the deposited data

Results flagged for a closer look

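Among 78 sets of values of 1 genotype that were searched for a single outlying mouse, 2 had one. Chance flags about 1 in 20 groups, or 3.9 here. Neither was a miR-150 row or ratio. WT replicate 5 was the lowest WT mouse for miR-17-5p, at 12.07 log2 CPM where the next was at 12.48, and for miR-20a-5p, at 11.84 where the next was at 12.16.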

How the results depend on the processing

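All 3 miR-150 rows stayed lower and called in each of 22 other settings. Without 1 mouse the log2 fold change was -1.38 to -1.19 for mir-150, -1.34 to -1.13 for miR-150-5p and -0.90 to -0.73 for miR-150-3p, and over the other settings -1.53 to -0.94, -1.35 to -0.95 and -0.93 to -0.51 (adjusted p at most 0.00953). Upper-quartile factors moved the median of hairpins by -0.239 and of mature miRNAs by -0.158. The 95 hairpins called lower (27.1% of 350) became 56 with library size only, 156 with no filter and 160 with DESeq2, where the cause was not tested. The fits with no filter and with DESeq2 started from all 1115 hairpins with counts, so their numbers are not shares of 350. Without 1 mouse, the ratio of 5p to 3p arm was -0.49 to -0.31, of hairpin to 5p arm -0.078 to -0.053 and of miR-150-5p to miR-142a-3p -0.92 to -0.64.

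The labels do not say that a number marks a shared litter or day, and not every same-numbered pair correlated above 0.1, so mice were not paired: deviations of same-numbered mice correlated between -0.0504 and 0.342 (hairpins) and between 0.0116 and 0.335 (mature), and 3 and 2 of 6 WT mice correlated best with their own number, numbers 5 and 6 in both tables. With the replicate block the 3 rows kept their calls, and the hairpin to 5p ratio was -0.074 and no longer called (adjusted p = 0.0703, exact permutation of signs).

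Among named miRNAs that were not called, the sign turned in some settings, for which the cause was not tested. With library size only, which moved the median of all mature miRNAs up by 0.246, miR-181a-5p had 0.20, miR-27a-3p 0.15, miR-30b-5p 0.25, miR-30c-5p 0.062 and miR-5121 0.21. With no filter, miR-181a-5p had 0.058, miR-30b-5p 0.089 and miR-5121 0.014. miR-30b-5p also had 0.012 with RLE size factors, 0.0076 with at least 10 counts in every library, 0.026 with identical rows taken once, 0.032 with DESeq2, 0.018 with limma-voom and -0.11 to 0.0071 without 1 mouse. miR-146a-5p had -0.19 with upper-quartile factors, -0.13 with the replicate block, -0.053 with limma-voom and -0.23 to 0.084 without 1 mouse. The call of miR-21a-5p was also lost with upper-quartile factors (0.11) and the block (0.21), those of miR-142a-3p (-0.15) and miR-191-5p (-0.10) with library size only, that of miR-191-5p also with no filter, and that of let-7i-5p with upper-quartile factors (0.22) and without WT replicate 1 (0.26). The median of the immature thymocyte miRNAs was -0.038 with upper-quartile factors (all mature miRNAs -0.17) and -0.062 with the block (all -0.090). Of the other Myb regulators 1 or 2 were lower in each fit without 1 mouse, while 109 to 125 of all mature miRNAs were lower (110 with all mice). The miR-150-3p arm rests on the fewest counts, which limits the ratio of the arms.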
